A study of Mus musculus with 6 samples.

Results

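The genes that make heme and the gene that breaks it down under stress were followed in the livers of mice fed a high-fat diet (HFD). They were chosen by name: Alas1, Alas2, Alad, Uros, Urod, Cpox, Ppox and Fech, which encode enzymes of heme synthesis, and Hmox1, which encodes heme oxygenase 1. All 9 were found among the 45777 genes listed, and all 9 passed the filter on low counts. None of the 9 passed the test for a difference between the genotypes after adjustment for multiple testing. Alas1 transcripts were the most abundant by a wide margin, Alas2 had the largest positive difference, and Hmox1 varied most between mice of one genotype.

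Liver RNA of 3 LT and 3 Fpn-LKO mice was sequenced, and all 6 were male and fed the HFD. LT are littermates with both copies of the ferroportin gene Slc40a1 floxed (Fpn fl/fl) and no Cre, and Fpn-LKO are Alb-Cre; Fpn fl/fl mice. The labels give the strain as C57BL/6 and give no age for these animals. The albumin promoter drives Cre in hepatocytes, and macrophages are not its target. Both groups carry the floxed allele, which was made in 129S cells before backcrossing. The labels put all 6 libraries in the same batch.

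Total counts on genes lay between 43086184 and 47778683 per library (exact two-sided permutation test between the genotypes, p = 0.3). Slc40a1, the targeted gene, had 126 to 180 CPM (counts scaled to library size) in LT and 143 to 176 CPM in the Fpn-LKO-labelled libraries, and its log2 fold change was 0.0073 (standard error, SE, 0.16). The counts of the targeted gene were thus not lower in them, and every direction given here rests on the labels. These counts take in the whole gene and all cells of the liver, so they do not measure the deletion in hepatocytes. The paper reports loss of ferroportin in hepatocytes of Fpn-LKO mice and more iron in their livers on the HFD. The transferrin receptor gene Tfrc, whose mRNA iron is known to lower, was chosen after its values were seen. It had 28.0 to 52.6 CPM in LT and 13.1 to 18.9 CPM in the Fpn-LKO-labelled libraries. The groups did not overlap, as for 10.6% of all genes tested (log2 fold change -1.24, adjusted p = 0.570 by edgeR). Hepatocyte markers were abundant, with 54014 to 68688 CPM summed over 8 genes in LT and 56260 to 67643 CPM in the Fpn-LKO-labelled libraries. The 4 cholangiocyte markers together had at most 2.23 CPM in any library.

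Heme is made partly in mitochondria and partly in the cytosol. ALA synthase, which joins glycine to succinyl-CoA, is the rate-limiting enzyme in the liver. Hepatocytes use the isoform ALAS1, which heme represses, whereas red cell precursors use ALAS2, whose mRNA carries an iron-responsive element. ALAD, UROS and UROD act in building the porphyrin ring in the cytosol, CPOX and PPOX oxidise it in mitochondria, and ferrochelatase, the product of Fech, inserts iron. The liver places much of its heme in cytochromes P450. Heme oxygenase 1 opens the ring and releases iron, carbon monoxide and biliverdin, and it is abundant in macrophages that digest old red cells.

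The iron-responsive element is shown because it is the sequence that ties an ALA synthase to iron. It is a hairpin in the 5′ UTR to which iron regulatory proteins bind when iron is scarce, and it acts on translation, which transcript counts do not measure. GENCODE 5′ UTRs were searched on the transcript's strand for C, then 5 bases, then the loop CAGTGN, then 5 bases able to pair with the first 5, G with T allowed. Among the 9 genes, only Alas2 held a match, beside 28 of the 20544 genes searched, or 0.136%. The matches of Alas2, ferritin light chain (Ftl1) and ferroportin are given 5′ to 3′ with the loop in capitals.
Alas2: ttggttcgtcctCAGTGCagggcaacagga
Ftl1: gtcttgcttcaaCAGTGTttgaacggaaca
Slc40a1: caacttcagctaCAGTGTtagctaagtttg
On GRCm38, the printed stretch of Alas2 lies on the plus strand at chrX:150547458-150547485 and continues after an intron at chrX:150552149-150552150. That of Ftl1 lies on the minus strand at chr7:45459778-45459807, and that of Slc40a1 on the minus strand at chr1:45925464-45925493.

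The promoters of the ALA synthases differ in the letters they hold. RefSeq promoter windows, which run from before each start site to just after it, were searched on both strands for the NRF1 core, the half-site GCGCA directly followed by its reverse complement, and the GATA motif AGATAA. Windows were present for Alas1, Alas2, Alad, Uros, Urod, Cpox and Ppox. The NRF1 core was in 319 of all 32851 windows (0.971%) and, among these genes, in that of Alas1. The GATA motif was in 3672 windows (11.2%) and, among these genes, in those of Alas2 and Cpox. Each match is shown in capitals with the bases around it, on the gene's strand, where the GATA motif of Alas2 reads as its reverse complement.
Alas1: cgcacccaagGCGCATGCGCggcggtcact
Alas2: actttgctttTTATCTttagcagaggcctg
The printed Alas1 stretch lies on GRCm38.p6 at chr9:106247906-106247935, minus strand, and the printed Alas2 stretch at chrX:150547321-150547350, plus strand. A match is a string of letters and does not show that a factor binds there.

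Within these livers the heme genes spanned a wide range of transcript levels per length, in TPM as deposited, which divides by transcript length and by the sum over all transcripts. Alas1 had 511 ± 136 TPM (SD over all 6 libraries, n = 6), 7.68 times the mean of Cpox. Cpox followed with 66.5 ± 13.8 TPM, Alas2 with 59.4 ± 17.6 TPM and Urod with 56.5 ± 6.93 TPM. Fech had 48.5 ± 7.16 TPM and Alad 39.1 ± 11.3 TPM. Uros had 14.5 ± 2.50 TPM, Hmox1 13.7 ± 7.73 TPM and Ppox, the lowest, 5.26 ± 0.936 TPM. Of the 8 pairs of neighbours in this order, 6 overlapped in their ranges over libraries, so only Alas1 over Cpox and Alad over Uros were separated in every library. Hmox2, the constitutive heme oxygenase, had 27.5 ± 4.46 TPM.

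**Figure D1:**
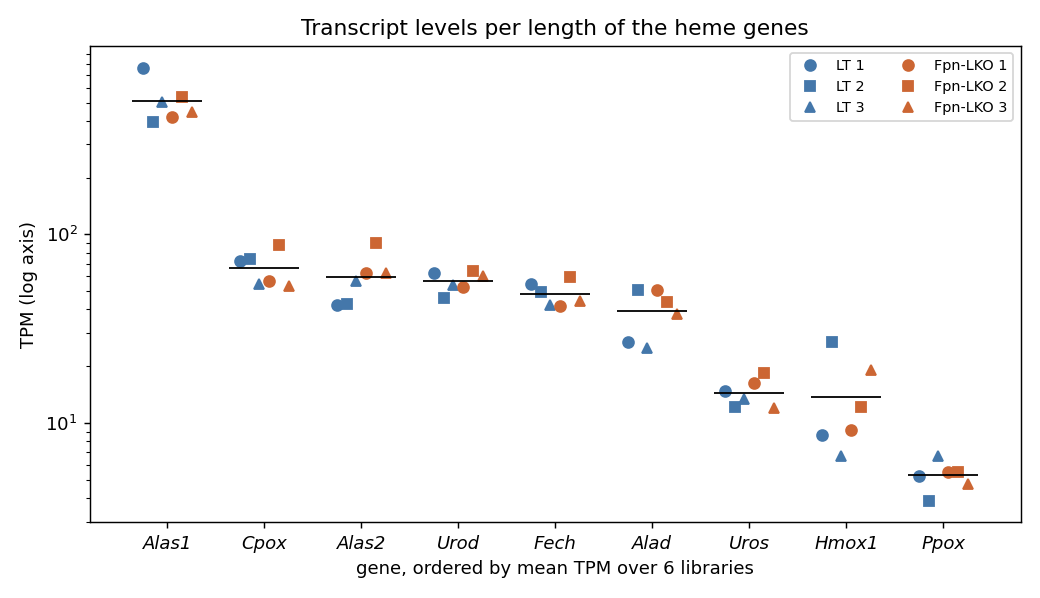
TPM on a log axis for each of the 9 genes, ordered by the mean over all 6 libraries, with a point per library coloured by genotype. Alas1 stands at 396 to 766 TPM, above every other gene, and Ppox lies lowest at 3.87 to 6.71 TPM.

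The comparison of Fpn-LKO with LT asked whether deleting ferroportin in hepatocytes goes along with another level of these transcripts. With Benjamini-Hochberg adjustment over 17274 genes tested in edgeR (quasi-likelihood), 0 of the 9 passed an adjusted p of 0.05, and their adjusted p-values lay between 0.982 and 0.995. Across all genes tested, 0.0232% passed. At an unadjusted p under 0.05 the count was 1 of 9, Alas2, which was higher, beside 4.80% of all genes (2.62% counting only those higher). DESeq2, edgeR's exactTest and limma each called 0 of the 9. Differences were positive for 4 genes and negative for 5, with a median log2 fold change of -0.10 beside -0.0040 over all genes. In CPM, the genotypes overlapped for every one of the 9, and they did not overlap for 10.6% of all genes. With only 9 genes, this is no contrast with all genes.

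**Figure D2:**
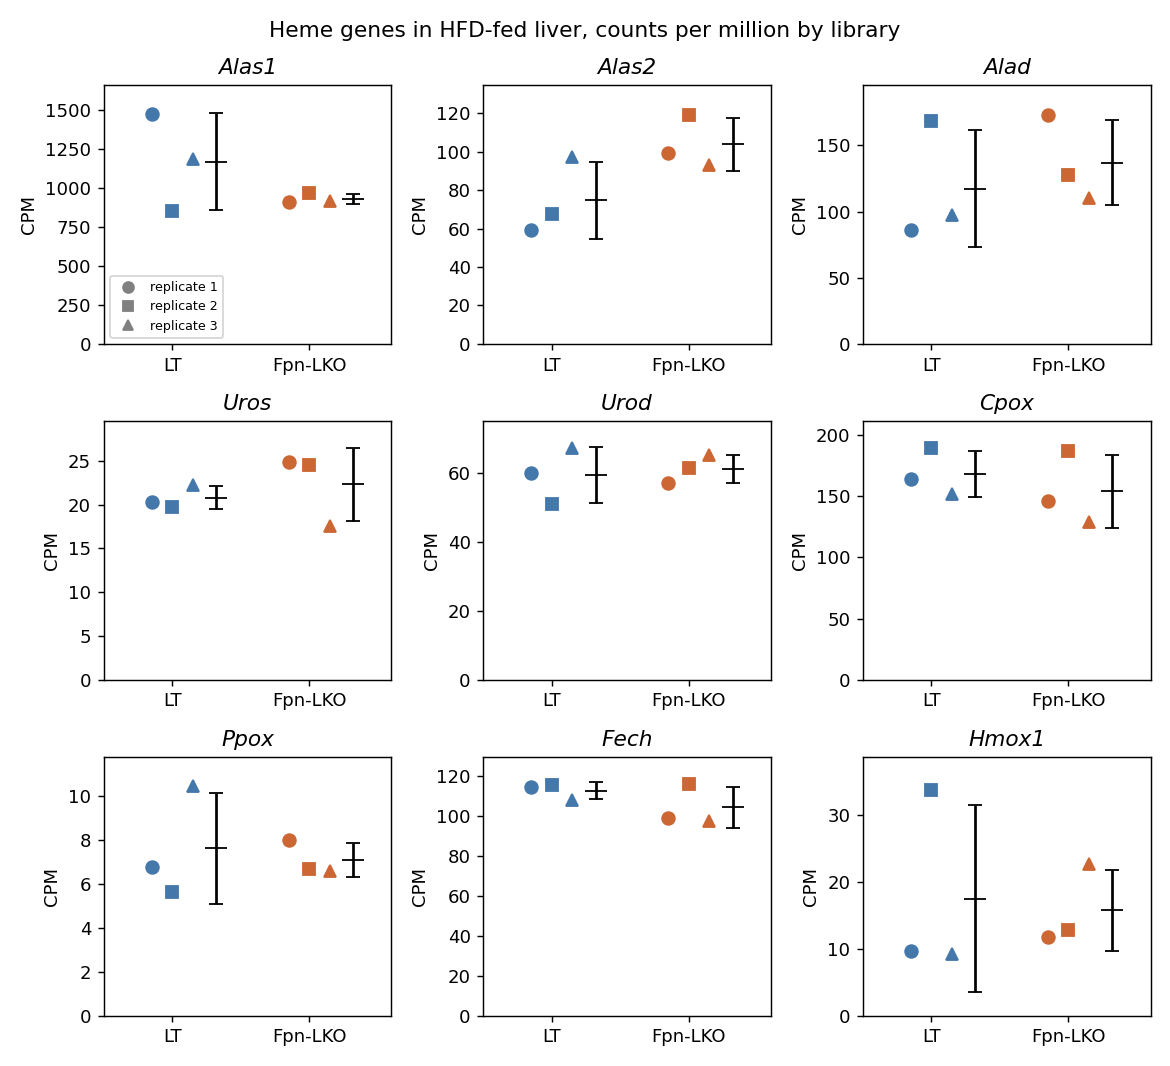
CPM by library for each of the 9 genes, on linear axes from 0, with the mean and SD of the 3 mice of each genotype. The genotypes overlap in every panel, and Hmox1 shows an LT library at 33.7 CPM beside others near 9 CPM.

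Alas1, the hepatic ALA synthase, on chromosome 9 from 106233455 to 106247954 of GRCm38, reached 1474, 855 and 1185 CPM across LT livers, compared with 910, 970 and 915 CPM across the Fpn-LKO-labelled libraries. The 3 libraries labelled Fpn-LKO lay close together and inside the wider range of LT, with LT replicate 2 the lowest of all 6. Averages were 1171 ± 309 CPM in LT and 932 ± 33.1 CPM in the other group (SD over 3 mice each), and the log2 fold change was -0.33 (SE 0.21, 95% interval -0.82 to 0.16, adjusted p = 0.982 by edgeR). The interval as a fold ran from 0.565 to 1.12. The transcript thus did not differ beyond the spread between mice, at 37048 reads or more per library. Without LT replicate 2 the log2 fold change was -0.51 (unadjusted p = 0.0292 by edgeR), and without LT replicate 1 it was -0.13.

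Alas2, the ALA synthase of red cell precursors, on chromosome X from 150547417 to 150570622, was measured at 59.1, 67.4 and 97.3 CPM in LT, whereas the Fpn-LKO-labelled libraries held 99.2, 119 and 92.8 CPM. The groups met at a single point, since LT replicate 3 exceeded Fpn-LKO replicate 3. Averages were 74.6 ± 20.1 CPM in LT and 104 ± 13.7 CPM in the other group (SD over 3 mice each), a 1.39-fold ratio with a 95% interval of 1.00 to 1.92. On the log2 scale the difference was 0.47 (SE 0.20), with an unadjusted p of 0.0475 and an adjusted p of 0.982 by edgeR. It was the only one of the 9 genes past an unadjusted 0.05 with all 6 mice. The unadjusted p by edgeR depended on single mice. It was 0.147 without LT replicate 1, 0.133 without LT replicate 2 and 0.00296 without LT replicate 3. It was 0.072 without Fpn-LKO replicate 1, 0.153 without Fpn-LKO replicate 2 and 0.0488 without Fpn-LKO replicate 3. On the TPM scale Alas2 had 42.0, 42.8 and 56.7 in LT and 62.2, 90.3 and 62.2 in the Fpn-LKO-labelled libraries, without overlap (exact two-sided permutation test, p = 0.1, the smallest that 3 against 3 allows). How many of all genes lay without overlap in TPM was not counted. TPM is relative to the sum of all transcripts. In limma on log2(TPM + 1), the median log2 fold change over the genes fitted was 0.083, beside -0.0040 in the fit on counts. The noncoding RNA Rn7s1 alone took 138255 to 153201 TPM in LT and 66756 to 185592 TPM in the other group. In FPKM, scaled by transcript length and library size, LT replicate 3 had 40.3 and Fpn-LKO replicate 3 had 39.5. The groups thus separated in TPM but overlapped in CPM and in FPKM.

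Red cells in the blood that remains in liver also carry RNA of their own lineage. The 4 globin genes summed to 348, 874 and 253 CPM for LT mice and to 907, 1124 and 381 CPM in the Fpn-LKO-labelled libraries (exact two-sided permutation test, p = 0.2). Both globins and Alas2 averaged higher in the Fpn-LKO-labelled libraries, at 804 against 492 CPM for globins and 104 against 74.6 CPM for Alas2. Their order over libraries differed: LT replicate 2 was high for globins and low for Alas2. Fpn-LKO replicate 3 had few globins but 92.8 CPM of Alas2. Of 12 red cell genes listed, 11 were in the table and 10 had any read, and 5 had reads in all 6 libraries. Their sum was 255 to 879 CPM in LT and 381 to 1127 CPM in the other group (exact p = 0.2). Klf1, a transcription factor of red cell precursors and the listed gene with the smallest p, lay the other way. It had 0.803, 1.20 and 1.45 CPM in LT mice and 0.335, 0.750 and 0.280 CPM for the Fpn-LKO-labelled libraries. The groups did not overlap, as for 10.6% of all genes (log2 fold change -1.33, SE 0.49, unadjusted p = 0.027 and adjusted p = 0.982 by edgeR). Rhag, a membrane protein of the Rh complex, had 0 reads in all 6. The part of red cells in the Alas2 values was not tested. In bulk RNA, fewer cells of a type and less RNA per cell cannot be told apart.

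Alas2 also lies wholly inside another annotated gene. Apex2, an endonuclease gene on the opposite strand, spans chromosome X from 150426974 to 150588206 and thereby all 23206 bases of Alas2. It stood at 17.1, 17.9 and 15.2 CPM for LT mice, against 11.0, 14.5 and 10.7 CPM for the Fpn-LKO-labelled libraries, for a log2 fold change of -0.47 (SE 0.16, adjusted p = 0.982 by edgeR). The direction was opposite to that of Alas2, whose mean read count of 4082 was above the 660 of Apex2. The strand setting of the counting is not given in the sources used here, so reads of the pair cannot be told apart there and both values are uncertain.

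**Figure D3:**
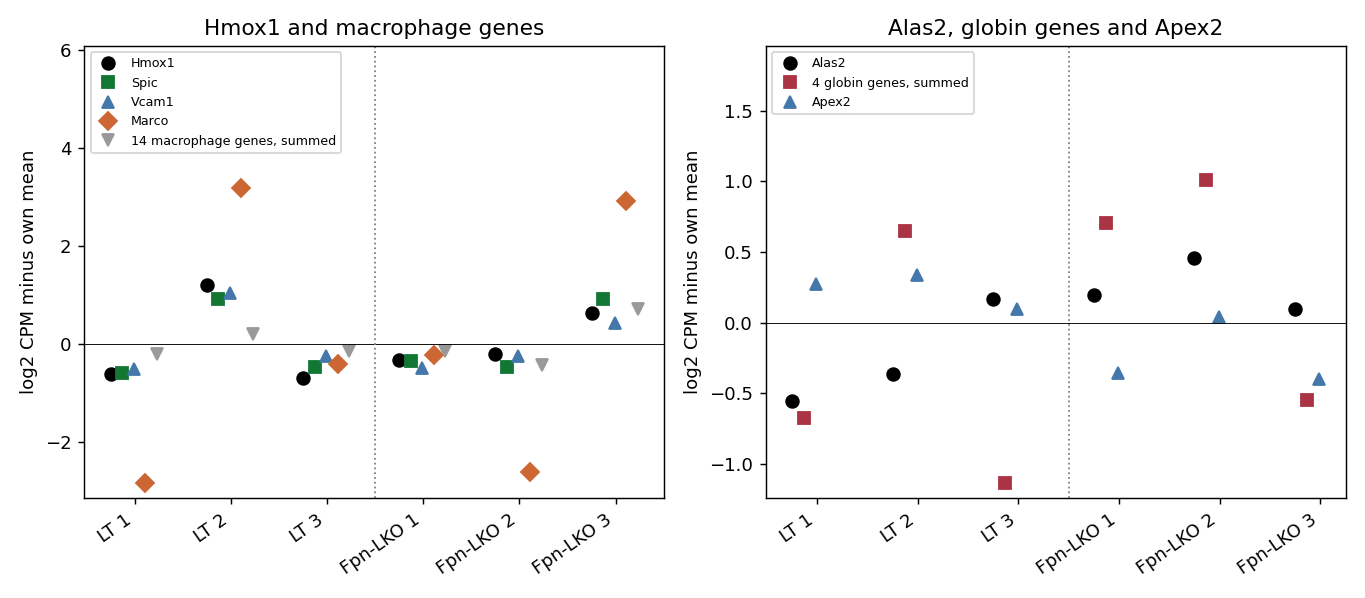
log2 CPM of each gene or gene sum, minus its own mean over the 6 libraries, by library, for Hmox1 with macrophage genes (left) and for Alas2 with 4 summed globin genes and Apex2 (right). Hmox1 is high in LT replicate 2 and Fpn-LKO replicate 3, as are Spic and Vcam1, picked for their likeness to it. Globins and Alas2 both average higher in the Fpn-LKO-labelled libraries but order the libraries differently.

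The ALA synthases were also set against each other, since both encode the first enzyme of the route. Alas2 made up 5.20%, 9.74% and 10.1% of the summed TPM of Alas1 and Alas2 in LT and 13.0%, 14.4% and 12.2% in the Fpn-LKO-labelled libraries. The means were 8.36% ± 2.74 and 13.2% ± 1.11 (SD, n = 3 each). The groups did not overlap, and the exact two-sided permutation test gave p = 0.1, the smallest possible. How often such a share of other gene pairs lies without overlap was not counted. In CPM, log2 Alas2 minus log2 Alas1 was -3.97 ± 0.58 in LT and -3.18 ± 0.14 in the other group. This ratio uses the same reads as the share, so its matching order was given in advance and adds no support. This share was chosen after the values of both genes had been seen.

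**Figure D4:**
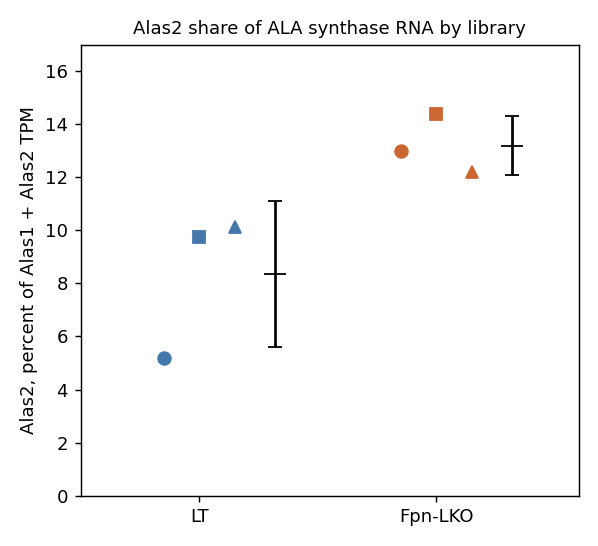
Alas2 as a percent of the summed TPM of Alas1 and Alas2, from 0, with a point per library and the mean and SD of the 3 mice of each genotype. The LT libraries lie at 5.20 to 10.1% and those labelled Fpn-LKO at 12.2 to 14.4%.

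The enzymes between the ALA synthases and ferrochelatase overlapped between the genotypes, and Alad varied most between mice. Alad, the enzyme that joins ALA molecules into porphobilinogen, on chromosome 4 from 62505984 to 62520063, reached 86.4, 168 and 97.5 CPM across LT livers, compared with 173, 127 and 111 CPM across the Fpn-LKO-labelled libraries. High and low libraries occurred in both groups, and the log2 fold change was 0.22 (SE 0.28), with a fold interval of 0.744 to 1.83. It was 0.58 without LT replicate 2 (unadjusted p = 0.0328 by edgeR), 0.044 without LT replicate 1 and 0.020 without Fpn-LKO replicate 1. Alad, which has 3 annotated transcripts, was also the gene whose counts and FPKM kept the least steady ratio between libraries. Its read count per FPKM, relative to that of Cpox, ran from 1.21 to 1.42 between libraries, a spread of 17.1%, beside 7.94% for Uros, 7.89% for Urod and at most 2.34% for the other genes. The level of Alad per length therefore depends on the transcript lengths the authors' counting used.

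Uros, which closes the ring, on chromosome 7 from 133686142 to 133710467, stood at 20.3, 19.8 and 22.3 CPM for LT mice, against 24.8, 24.5 and 17.5 CPM for the Fpn-LKO-labelled libraries. Its lowest and highest libraries both belonged to the latter, and the log2 fold change was 0.10 (SE 0.16, fold interval 0.834 to 1.38). Uros, by the annotation, shares 1135 bases with the neighbouring gene Bccip, so reads there may belong to either. Urod, which trims the side chains of the ring, on chromosome 4 from 116989965 to 116994436, reached 59.8, 51.0 and 67.1 CPM across LT livers, compared with 57.0, 61.3 and 65.1 CPM across the Fpn-LKO-labelled ones. Its fold interval of 0.837 to 1.27 was among the narrowest, around a log2 difference of 0.043, which turned to -0.049 without LT replicate 2 and to -0.0016 without Fpn-LKO replicate 3.

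Cpox, the enzyme that starts the mitochondrial part of the oxidation, on chromosome 16 from 58670208 to 58680391, was measured at 164, 189 and 152 CPM in LT, whereas the Fpn-LKO-labelled libraries held 146, 187 and 129 CPM. Replicate 2 was the highest in both groups, and the fold interval was 0.699 to 1.20. Ppox, which makes protoporphyrin, on chromosome 1 from 171276991 to 171281193, stood at 6.75, 5.63 and 10.4 CPM for LT mice, against 7.97, 6.68 and 6.59 CPM for the Fpn-LKO-labelled ones. With 244 to 432 reads per library it was the least covered of the 9, and its fold interval was 0.624 to 1.39. Its log2 fold change was -0.10, and 0.19 without LT replicate 3, the highest library. Fech, ferrochelatase, on chromosome 18 from 64456542 to 64489098, reached 114, 115 and 108 CPM across LT livers, compared with 99.0, 116 and 97.6 CPM across the Fpn-LKO-labelled libraries. It averaged 113 ± 4.15 CPM in LT and 104 ± 10.3 CPM in the other group (SD over 3 mice each), and the log2 fold change of -0.11 had the smallest standard error of the 9 genes, 0.11, and a fold interval of 0.773 to 1.11. Of the 9 genes, Fech was thus the one measured most precisely.

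**Figure D5:**
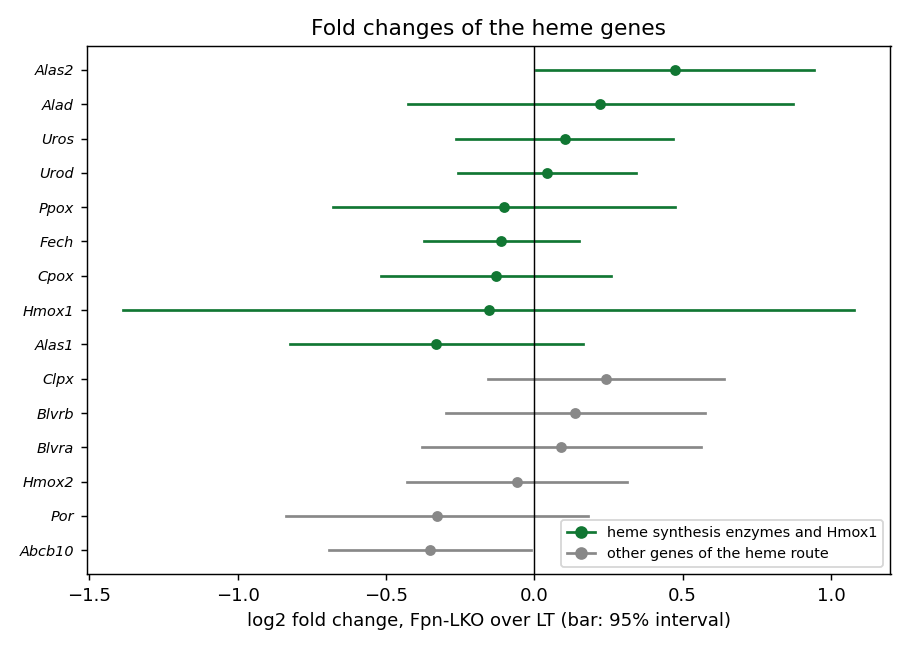
log2 fold change of Fpn-LKO over LT with its 95% interval from edgeR's quasi-likelihood fit, for the 9 genes and for the 6 other genes of the heme route named in the text. Every interval but those of Alas2 and Abcb10 includes 0, and that of Hmox1 is the widest of the 9, from -1.39 to 1.08.

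Hmox1, heme oxygenase 1, on chromosome 8 from 75093618 to 75100593, was measured at 9.66, 33.7 and 9.16 CPM in LT, whereas the Fpn-LKO-labelled libraries held 11.7, 12.7 and 22.8 CPM. In each genotype a single mouse stood above the other two, LT replicate 2 and Fpn-LKO replicate 3. Averages were 17.5 ± 14.0 CPM in LT and 15.7 ± 6.11 CPM in the other group (SD over 3 mice each), and the log2 fold change was -0.15 (SE 0.53, adjusted p = 0.995 by edgeR). The fold interval of 0.383 to 2.11 holds halving as well as doubling. The direction turned without LT replicate 2, at a log2 fold change of 0.75 (SE 0.31), and without Fpn-LKO replicate 1, at 0.021. As a part of the summed TPM of both heme oxygenases, Hmox1 made up 24.0%, 50.5% and 19.8% in LT and 31.1%, 26.3% and 38.8% in the other group (exact two-sided permutation test, p = 1).

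The genes whose pattern over the 6 libraries was most like that of Hmox1 were looked up. Being picked for this likeness, they share its high mice, LT replicate 2 and Fpn-LKO replicate 3, by choice, and no test was run. Likeness was measured over 12553 genes as the root-mean-square difference in log2 CPM, each gene centred on its own mean, and Hmox1 itself deviated by 0.68. Spic, a transcription factor of iron-recycling macrophages, was the closest at 0.21. It had 0.683, 1.96 and 0.749 CPM in LT mice, against 0.818, 0.750 and 1.96 CPM for the Fpn-LKO-labelled libraries, from 31 to 91 reads per library. Vcam1, an adhesion molecule of endothelium and resident macrophages, followed at 0.22, with 38.5 CPM in LT replicate 2, 25.2 CPM in Fpn-LKO replicate 3 and 13.0 to 15.8 CPM in the other 4. Csf2rb, a cytokine receptor chain, lay at 0.28, Plekhb2 at 0.28 and Gja4, a connexin of vessels, at 0.29.

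The macrophage markers as a group did not all follow. The 14 listed genes, all with reads in every library, summed to 419, 550 and 434 CPM for LT mice and to 434, 355 and 786 CPM in the Fpn-LKO-labelled libraries (exact two-sided permutation test, p = 0.8). The sum was highest in the same pair of mice as Hmox1, but the order was reversed, with more in Fpn-LKO replicate 3 than in LT replicate 2. Marco, a scavenger receptor of macrophages, was chosen after its values were seen. It had 27.4 CPM in LT replicate 2, 22.9 CPM in Fpn-LKO replicate 3 and 0.42 to 2.58 CPM in the other 4, a far wider swing than that of Hmox1. In likeness to Hmox1 it ranked 12497 of 12553 genes. Cd163 and Lyz2, the listed genes with the smallest p by edgeR, had log2 fold changes of -0.92 and 0.73. Lyz2 had 42.6 CPM in LT replicate 2, below the 55.8 CPM of Fpn-LKO replicate 1. Log2 fold changes were positive for 11 of the 14 and negative for 3. The part of macrophages in the Hmox1 values was not tested.

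Other genes of the heme route, which carry its intermediates, bring iron to it or use its products, were examined next. Of 27 listed, 26 were tested and 0 passed, at adjusted p-values of 0.982 or more by edgeR. At an unadjusted p under 0.05 there was 1, Abcb10, beside 4.80% of all genes. The median log2 fold change was 0.033, with 15 positive and 11 negative. Abcb10, a mitochondrial transporter linked to heme synthesis, stood at 29.3, 37.3 and 38.0 CPM for LT mice, against 28.4, 29.8 and 23.7 CPM for the Fpn-LKO-labelled libraries, for a log2 fold change of -0.35 (SE 0.15). Por, which passes electrons to cytochromes P450 and to heme oxygenase, had a log2 fold change of -0.33, and Clpx, the mitochondrial unfoldase that acts on ALA synthase, 0.24. Blvra and Blvrb, the biliverdin reductases that follow heme oxygenase, had 0.091 and 0.14, and Hmox2 had -0.059.

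Transcription factors, coactivators and iron regulatory proteins that act on these genes formed another list. Of 18 listed, 17 were tested, and 0 passed either the adjusted threshold or an unadjusted p of 0.05. The median log2 fold change was -0.063, with 8 positive and 9 negative. Ppargc1a, the coactivator PGC-1α that raises hepatic Alas1 in fasting, had 0.54. Aco1, iron regulatory protein 1, had -0.18, Hif1a, the hypoxia factor, -0.15, and Rxra, the partner of the xenobiotic receptors, -0.18. Gata1, the red cell factor, had 0 reads in all 6 libraries.

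Hmox1 shares its control by BACH1 and NRF2, which respond to heme and to oxidants, with a set of known targets, so these were set beside it. Of 10 listed, 9 were tested and 0 passed, with 1 at an unadjusted p under 0.05, beside 4.80% of all genes. That gene was Ftl1, which reached 2029, 2055 and 1712 CPM across LT livers, compared with 2928, 2707 and 3266 CPM across the Fpn-LKO-labelled libraries, without overlap, as for 10.6% of all genes, with a log2 fold change of 0.62 and an adjusted p of 0.926 by edgeR. The iron-responsive elements printed above were picked by name from the 28 genes with a match. Of the genes printed there, Ftl1 was the one whose groups did not overlap in CPM. Fth1, the ferritin heavy chain on the same target list, overlapped between the groups, with a log2 fold change of 0.12. Srxn1, which repairs oxidised peroxiredoxin, had 0.43, Gclc, of glutathione synthesis, 0.30 and G6pdx, of the pentose phosphate route, -0.55. The median of the 9 was 0.12, with 6 positive and 3 negative.

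Hemoproteins, into which hepatic heme is placed, gave 0 of 14 tested past the threshold, out of 15 listed, and 2 at an unadjusted p under 0.05, both lower, beside 2.19% of all genes that were lower at this p. Cyp7a1, the rate-limiting enzyme of bile acid synthesis, was measured at 357, 163 and 343 CPM in LT, whereas the Fpn-LKO-labelled libraries held 79.3, 192 and 50.4 CPM, for a log2 fold change of -1.42 (SE 0.51, adjusted p = 0.982 by edgeR). The groups overlapped through LT replicate 2 and Fpn-LKO replicate 2. Cyp51, of cholesterol synthesis, stood at 57.8, 65.8 and 62.5 CPM for LT mice, against 30.0, 37.4 and 55.4 CPM for the Fpn-LKO-labelled ones, without overlap, as for 10.6% of all genes (log2 fold change -0.60, SE 0.22). Cyp1a2, of drug metabolism, had 0.26 and Cyp4a14, of fatty acid oxidation, -1.27. The median of the 14 was -0.082, with 5 positive and 9 negative.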

How the data were processed

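Liver RNA of 3 LT and 3 Fpn-LKO mice was measured by RNA-seq, 1 library per mouse. The labels give 1 µg of RNA and a stranded mRNA kit, whereas the methods describe total RNA with rRNA removal. The submitters' processing notes name bcl2fastq 2.20.0, FastQC 0.11.7, HISAT2 2.1.0, Bowtie2 2.3.4.1, StringTie 2.1.3b and the build mm10. The authors deposited read counts per RefSeq gene, FPKM (per transcript length and library size) and TPM.

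The deposited counts went unchanged into edgeR 4.0.16 (R 4.3.3), with the quasi-likelihood test, TMM scaling and genes with 0 reads in at most 1 library, in place of the exactTest named in the methods. Of 45777 genes, 22544 had no reads and 17274 were tested. Benjamini-Hochberg adjustment ran over all of them, with a threshold of 0.05, intervals are 95%, and standard errors came from the F statistic. The common biological coefficient of variation was 0.275. TPM served for levels between genes. Coordinates are GRCm38, and sequences were read from RefSeq (GRCm38.p6) and GENCODE tables. Genotype and replicate come from the sample labels, and the replicate numbers belong to different mice.

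The 9 genes and all lists were chosen with earlier results of these data known. Of each other list, the text names at most 4 genes with the smallest p, beside Hmox2, Blvra, Blvrb and Slc40a1, and for Alas1, Alas2 and Hmox1 the 5 genes of most like pattern with a mean of at least 1 CPM. Apex2 and Bccip (for their overlap with Alas2 and Uros), Tfrc, Fth1, Rn7s1, Rhag, Gata1, Marco and the neighbours of Alas1 fall outside this rule and were chosen after their values were seen. Alternatives were RLE scaling, DESeq2 1.42.0, exactTest, other filters, the replicate number as a block, limma 3.58.1 on log2(TPM + 1) and log2(TPM + 0.1), and leaving out each mouse. Of the cell type markers, Ahsp and Tf were not analysed here, some genes that the rule names are not reported here, and 9 endothelial and stellate cell genes summed to 625 to 680 CPM in LT and 611 to 645 CPM in Fpn-LKO (exact permutation p = 0.2).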

Additional observations from a re-analysis of the deposited data

How the results depend on the processing

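Of the 9 genes, 0 passed the threshold under any of the 14 alternatives, where the lowest adjusted p was 0.643 (Alas2 without LT replicate 3, edgeR). Log2 fold changes kept their sign for Alas1 (-0.51 to -0.13), Alas2 (0.33 to 0.71), Alad (0.020 to 0.58), Uros (0.019 to 0.25), Cpox (-0.29 to -0.015) and Fech (-0.20 to -0.019). The sign of Hmox1 turned with the replicate block (0.068), with limma on log2(TPM + 1) (0.13) and log2(TPM + 0.1) (0.15), and among the fits leaving out a mouse, which gave -0.52 to 0.75. Ppox turned with limma (0.017 and 0.025) and within -0.27 to 0.19 when a mouse was left out, and Urod within -0.049 to 0.14. The cause was not tested. The TPM fits had a median over all genes of 0.083 and 0.097.

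Over all genes, 4 passed in the fit reported, all higher, beside 72 by DESeq2 (49 higher and 23 lower), 63 by exactTest (44 higher and 19 lower), 7 by limma on log2(TPM + 0.1) and 0 to 6 when a mouse was left out (0 without LT replicate 2, 1 without LT replicate 1, LT replicate 3 or Fpn-LKO replicate 2, 6 without Fpn-LKO replicate 3). Samples with the same replicate number deviated together with r = 0.212, 0.0136 and 0.0956, not all above 0.1, so the numbers were not taken as a pairing, and not every sample correlated best with its own number. With the number as a block, 0 genes passed, and the unadjusted p of Alas2 was 0.0513 by edgeR. At an unadjusted p under 0.05, the 9 genes gave 0 to 2 when a mouse was left out, Alas1 and Alad in place of Alas2 without LT replicate 2.

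With 3 mice per genotype, an exact permutation test of 1 gene cannot go below 0.1. How far read depth limits these comparisons was not tested, and Ppox had the fewest reads, 244 to 432 per library. Fold intervals ran from 0.773 to 1.11 for Fech to 0.383 to 2.11 for Hmox1.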

Other observations

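Alas1 lies on chromosome 9 near a gene that passed the adjusted threshold, Rpl29. Of the 21 other genes tested within 500000 bases on either side, 4 were higher and 1 lower at an unadjusted p under 0.05, beside 2.62% and 2.19% of all genes, and Rpl29 was the 1 past the adjusted threshold. Rpl29, a ribosomal protein gene that starts at 106428889, reached 5.64, 4.36 and 8.31 CPM across LT livers, compared with 73.0, 73.2 and 43.3 CPM across the Fpn-LKO-labelled libraries (log2 fold change 3.37, adjusted p = 0.0289 by edgeR). Glyctk, glycerate kinase, on the other side of Alas1 from 106152859 to 106160158, was measured at 112, 116 and 129 CPM in LT, whereas the Fpn-LKO-labelled ones held 267, 269 and 170 CPM. Log2 fold changes were 1.12 for Abhd14b, 0.72 for Abhd14a and -2.56 for Col6a5. By the annotation, Abhd14a (106440051 to 106451203) overlaps Abhd14b (106447737 to 106452923), so reads there may belong to either. The median over the 21 neighbours was 0.069, with 12 positive and 9 negative, and Alas1 itself had -0.33. In the Fpn-LKO-labelled libraries, replicate 3 had the lowest level of Glyctk, Rpl29, Abhd14a and Abhd14b.

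The genes whose pattern over the 6 libraries was most like that of Alas2, which deviated by 0.35 (root-mean-square, log2), were led by Ldhd, mitochondrial D-lactate dehydrogenase. Ldhd stood at 72.1, 85.0 and 121 CPM for LT mice, against 124, 128 and 109 CPM for the Fpn-LKO-labelled libraries, a likeness of 0.078. It was followed by C4b, a complement component, Antxr2, Zfp809 and Rdh5, each at 0.12. For Alas1, which deviated by 0.27, the closest were Gm12354 at 0.069, Osbpl1a, an oxysterol-binding protein, at 0.072, LOC115486493 at 0.078, Nt5c3, a nucleotidase, at 0.095 and Ctnnal1 at 0.099. Osbpl1a reached 224, 144 and 198 CPM across LT livers, compared with 156, 147 and 147 CPM across the Fpn-LKO-labelled ones, with LT replicate 2 the lowest in both genes. These are descriptions over 6 libraries out of 12553 genes compared, with no test.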
